A study of Mus musculus with 4 samples.

Results

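Neurofilament and neuronal cytoskeleton genes were followed in bulk RNA of mouse dorsal root ganglia, which hold the cell bodies of the body's sensory neurons along with their glia. The 10 genes were chosen by name, with earlier results of these data known: Nefl, Nefm, Nefh, Prph, Ina, Tubb3, Stmn2, Map2, Uchl1 and Thy1. All 10 were among the 14405 genes of the deposited expression matrix, and all 10 passed the filter that left 14040 genes for testing. Mutant ganglia came from mice of the genotype Prdm12-/Fl; AvilCreERT2/+ (2 samples), which have a null allele and a floxed allele of Prdm12 and a single copy of the Cre, and reference ganglia came from wild type mice (2 samples). All were 10 weeks old and of mixed strain. CreERT2 is a recombinase that acts after tamoxifen, and here it is driven from Avil, a gene of sensory neurons. The sources used here do not give whether and when tamoxifen was used, whether the wild type mice received it, which part of Prdm12 is floxed, or whether a sample pooled animals. The question was how the ganglion transcriptome differs once Prdm12, which encodes a zinc-finger regulator needed to form nociceptors, has been lost.

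Neurofilaments are the intermediate filaments that fill large axons. They are built from a light, a medium and a heavy subunit (Nefl, Nefm and Nefh) together with alpha-internexin (Ina) or, in peripheral neurons, peripherin (Prph). In sensory ganglia the heavy subunit is the classic marker of large, myelinated neurons for touch and body position, while peripherin is strongest in small, unmyelinated neurons for pain, itch and temperature. Tubb3, Stmn2 and Map2 belong to the microtubule side of the cytoskeleton, and Uchl1 and Thy1 are widely used as general neuronal markers.

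Promoter sequences, from the RefSeq table on GRCm38.p6, matched 5 of the 10 genes by symbol. Those of Prph, Tubb3 and Uchl1 are shown because the ratios given later turn on peripherin, because Tubb3 alone was higher in both mutant libraries than in both wild types, and because Uchl1 was the most abundant of the genes. Each is the 250 bases before the start annotated by RefSeq, 5′ to 3′ on the plus strand, at chr15:99054924-99055173 (Prph), chr8:123411303-123411552 (Tubb3) and chr5:66675871-66676120 (Uchl1). Capitals mark a TATA box (TATAAA) or a GC box (GGGCGG, or CCGCCC on the other strand).
Prph: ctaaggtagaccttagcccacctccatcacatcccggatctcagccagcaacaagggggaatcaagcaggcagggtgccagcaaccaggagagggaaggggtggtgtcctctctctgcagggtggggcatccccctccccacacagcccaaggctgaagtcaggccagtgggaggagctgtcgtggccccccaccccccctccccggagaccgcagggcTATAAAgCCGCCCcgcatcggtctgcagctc
Tubb3: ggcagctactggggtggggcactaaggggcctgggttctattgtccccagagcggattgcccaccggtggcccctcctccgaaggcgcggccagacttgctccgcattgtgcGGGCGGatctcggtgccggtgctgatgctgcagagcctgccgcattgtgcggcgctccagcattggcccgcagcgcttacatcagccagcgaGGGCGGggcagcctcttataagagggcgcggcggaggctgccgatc
Uchl1: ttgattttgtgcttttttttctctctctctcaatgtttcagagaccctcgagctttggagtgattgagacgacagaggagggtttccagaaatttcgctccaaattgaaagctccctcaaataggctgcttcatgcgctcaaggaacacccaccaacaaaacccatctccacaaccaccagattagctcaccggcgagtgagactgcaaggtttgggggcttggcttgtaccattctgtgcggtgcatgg
The Prph window held 1 TATA box, whose first base lay at -31 from the start, and 1 GC box on the minus strand at -24, and these did not overlap. The Tubb3 and Uchl1 windows reach past the starts that GENCODE M21 gives for these genes, so they are not wholly upstream in that annotation. Tubb3 had 2 GC boxes, at -138 and -46, and no TATA box in these letters, and Uchl1 had neither. Of 32851 windows of this length in the table, 12.4% held a TATA box and 32.7% a GC box on either strand. The cAMP response element TGACGTCA occurred in none of the 3 windows and in 1.55% of all windows.

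The targeted gene was checked first. Prdm12 stood at 1.05 and 1.50 FPKM (fragments per kilobase of transcript, scaled for library size) in mutant ganglia, against 7.58 and 10.7 FPKM in wild type ganglia. Both mutant libraries were lower, but the log2 difference did not pass over all genes (-2.14, SE 0.21, limma adjusted p = 0.180). The authors' deposited table lists Prdm12 with a log2 fold change of -2.84 and q = 0.00742, at group levels of 1.27 FPKM in mutants and 9.13 FPKM in wild types. These 2 log2 values are on unlike scales, since -2.14 was taken on log2(FPKM + 1). None of the 10 cytoskeleton genes was among the 150 entries of the authors' table. Sensory neuron identity genes were present in every library, Avil at 102 and 164 FPKM in mutant and 78.4 and 124 FPKM in wild type ganglia, and Isl1 at 15.1 and 22.6 FPKM against 16.1 and 18.8 FPKM. Summed over all genes, FPKM ran from 629900 to 686830 in the mutants and from 620018 to 674082 in the wild types. The number of reads behind these values is unknown. In bulk RNA, fewer neurons and less of a transcript per neuron cannot be told apart.

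The neurofilament subunit genes varied more between the 2 libraries of a genotype than between the genotypes. Nefl, the light subunit, which can start filament assembly, was at 497 and 1238 FPKM in mutant 1 and 2, against 402 and 740 FPKM in wild type 1 and 2. Nefm, the medium subunit, was at 127 and 374 FPKM in the mutants, against 108 and 221 FPKM in the wild types. Nefh, the heavy subunit, whose long phosphorylated tail spaces the filaments, was at 97.2 and 279 FPKM in the mutants, against 77.3 and 147 FPKM in the wild types. For each of these genes mutant 2 was the highest library and wild type 2 the next, and the groups overlapped because mutant 1 lay below wild type 2. Within mutants the higher library exceeded the lower 2.49-fold for Nefl, 2.94-fold for Nefm and 2.87-fold for Nefh, and within wild types 1.84-fold, 2.05-fold and 1.90-fold. The group means were 867 ± 524 and 571 ± 239 FPKM for Nefl, 251 ± 175 and 165 ± 80.2 FPKM for Nefm, and 188 ± 129 and 112 ± 49.3 FPKM for Nefh, the mutant mean given first each time and the wild type mean second (SD, n = 2 each). By those means the folds of mutant over wild type were 1.52, 1.52 and 1.68.

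**Figure D1:**
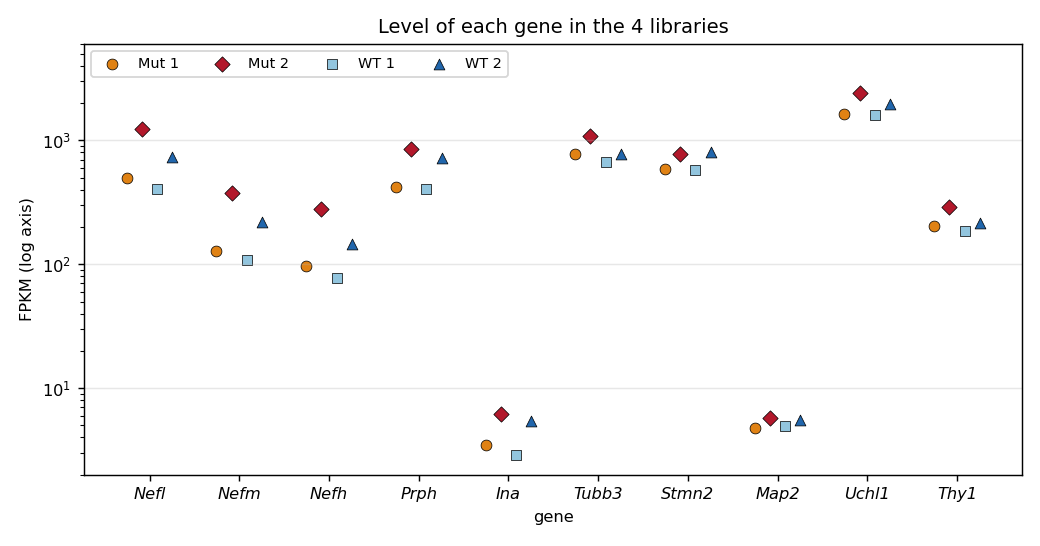
FPKM of each of the 10 genes on a log axis, with 1 point per library (mutant 1 and 2, then wild type 1 and 2). Mutant 2 is the highest library for 9 genes and wild type 1 the lowest for 9, so that mutant and wild type points interleave for every gene except Tubb3.

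Nefl (ENSMUSG00000022055.7) lies on chromosome 14 at 68083863 to 68089095 on the plus strand and Nefm (ENSMUSG00000022054.11) beside it at 68082590 to 68124846 on the minus strand, in GENCODE M21 on GRCm38, the assembly also called mm10. Their annotated exons share 1108 bases on opposite strands, 32.8% of the exonic bases of Nefl and 19.2% of those of Nefm. The sources used here give neither the strandedness of the libraries nor the annotation used for counting, so reads of the shared stretch cannot be told apart between these genes. Nefh (ENSMUSG00000020396.8) lies apart from them, on chromosome 11 at 4938754 to 4948064, and overlaps no annotated gene. It gave the same order of libraries.

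Prph and Ina, the partner filament genes, showed the same order of libraries with a smaller difference between the genotypes. Prph was at 421 and 854 FPKM in mutant ganglia, against 403 and 719 FPKM in wild type ganglia. Ina, a filament gene best known from central neurons, was at only 3.46 and 6.24 FPKM in mutants, against 2.87 and 5.41 FPKM in wild types. In both genes the 2 lower libraries were mutant 1 and wild type 1, and the groups overlapped. Mean levels were 637 ± 307 and 561 ± 223 FPKM for Prph and 4.85 ± 1.97 and 4.14 ± 1.80 FPKM for Ina in mutants and wild types (SD, n = 2 each).

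On the microtubule side, Tubb3, the neuron-specific beta tubulin, was at 777 and 1079 FPKM in mutant ganglia, against 672 and 775 FPKM in wild type ganglia. It was the 1 gene of the 10 with both mutants above both wild types, and the nearest libraries, mutant 1 and wild type 2, were almost level. Its locus, on chromosome 8 at 123411424 to 123422015, lies within the longer same-strand locus Gm20388, so reads could be split between them. Non-overlap in this direction occurred in 12.5% of all genes tested, and in the other direction, which 0 of the 10 showed, in 19.6%. Stmn2, a stathmin that binds free tubulin and is needed for axon maintenance, was at 588 and 783 FPKM in mutants, against 581 and 803 FPKM in wild types. Map2, the microtubule-associated protein of dendrites and cell bodies, was at 4.77 and 5.74 FPKM in mutants, against 4.91 and 5.55 FPKM in wild types. For Stmn2 and Map2 the mutant and wild type ranges nearly coincided.

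The general neuronal markers kept this order of libraries, with smaller folds between them. Uchl1, a deubiquitinase also known as PGP9.5, was at 1636 and 2433 FPKM in mutant ganglia, against 1593 and 1983 FPKM in wild type ganglia. Thy1, a surface glycoprotein of projection neurons, was at 203 and 287 FPKM in mutants, against 185 and 215 FPKM in wild types. Both had mutant 2 as the highest library, and mutant 1 lay between the wild types.

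Over the 4 libraries, mean levels ran in the order Uchl1 (1911 FPKM), Tubb3 (826), Nefl (719), Stmn2 (689), Prph (599), Thy1 (223), Nefm (208), Nefh (150), Map2 (5.24) and Ina (4.50). FPKM is scaled per transcript length, so these levels may be set beside each other. For Nefl, Nefm and Tubb3 this is limited by the shared exonic bases and the Gm20388 locus described above. Uchl1 over Tubb3, Prph over Thy1, Nefm over Nefh and Nefh over Map2 held in all 4 libraries. The order of Nefl and Stmn2 did not, since Nefl was the higher of that pair in 1 library only, and Thy1 exceeded Nefm in 2 of the 4 libraries. Tubb3 over Nefl, Stmn2 over Prph and Map2 over Ina each held in 3 libraries.

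The comparison of genotypes was made with limma on log2(FPKM + 1) across all 14040 genes. None of the 10 genes passed an adjusted p of 0.05, where 0% of all genes did, and none reached an unadjusted p of 0.05, where 1.35% of all genes were higher and 3.01% lower. Across all genes these were 190 higher and 422 lower, and the split was 268 and 357 after quantile normalization and 22 and 384 after scaling to other pan-neuronal genes. The log2 difference of Nefh, mutant minus wild type, was 0.62 (SE 0.56, 95% interval -0.77 to 2.02, limma adjusted p = 0.994). It was 0.52 for Nefl (interval -0.74 to 1.79) and 0.49 for Nefm (interval -0.97 to 1.96). Prph had 0.16 (interval -0.92 to 1.23), Ina 0.19 (interval -0.65 to 1.04) and Tubb3 0.34 (interval -0.21 to 0.90). The intervals were narrowest for Map2 (0.0023, -0.40 to 0.40), and those of Thy1 (0.27, -0.29 to 0.83), Uchl1 (0.17, -0.47 to 0.80) and Stmn2 (-0.0098, -0.62 to 0.60) also spanned 0. All these intervals cover the spread between 2 samples a group, so a difference of either sign was not shown for any of the 10, nor was its absence.

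Differences were above 0 for 9 of the 10 genes, where 49.1% of all genes tested were above 0. Their median was 0.23, beside -0.0048 over all genes tested. That median depended on single libraries, at 0.56 without mutant 1, -0.13 without mutant 2, -0.0057 without wild type 1 and 0.50 without wild type 2. Without mutant 2, only Tubb3 and Thy1 of the 10 stayed above 0. When libraries were scaled to equal levels of 29 other pan-neuronal genes, which moved the median of all genes to -0.20, the median of the 10 was 0.023, with Nefh at 0.39, Nefl at 0.29 and Nefm at 0.26 and with Prph (-0.077), Uchl1 (-0.066), Map2 (-0.19) and Stmn2 (-0.24) below 0.

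**Figure D2:**
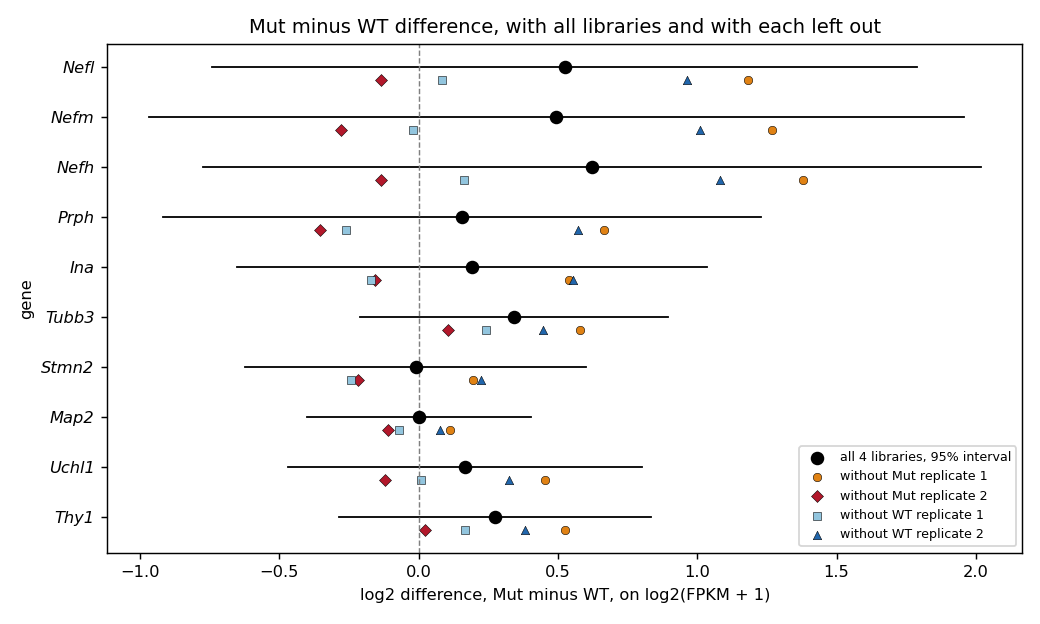
Log2 difference of mutant minus wild type for each gene on log2(FPKM + 1). Black points and lines give the value with all 4 libraries and its 95% interval, and coloured points the value with 1 library left out. Every black line crosses 0, and leaving out mutant 2 puts 8 of the 10 genes below 0.

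As a measure of the neuronal share of each library, the 10 genes summed to 4353 and 7340 FPKM in mutant 1 and 2, against 4029 and 5614 FPKM in wild type 1 and 2. This was 0.691% and 1.07% of the FPKM total in mutants, against 0.650% and 0.833% in wild types, so the groups overlapped. All 10 genes were higher in the library numbered 2 than in the one numbered 1 in both genotypes, which held for 40.3% of all genes tested. A fold above 1.5 between the libraries of a genotype was reached by 5 of the 10 in mutants, where 9.61% of all genes did, and by 5 of the 10 in wild types, where 7.98% did. In both genotypes these were the intermediate filament genes Nefl, Nefm, Nefh, Prph and Ina. Nefl, Nefm and Nefh together made up 16.6% and 25.8% of the sum of the 10 in mutants, against 14.6% and 19.7% in wild types.

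Most other neuronal and cytoskeleton genes shared this order of libraries, though only 9 of 14 tubulin genes beside Tubb3 did so in both genotypes. Of 29 other pan-neuronal genes, 28 were higher in the library numbered 2 in both genotypes, and 0 passed the test between genotypes, with 1 higher and 1 lower without overlap and a median log2 difference of 0.26. For this and each list that follows, the shares of all genes without overlap were 12.5% higher and 19.6% lower. Snap25, a protein of synaptic vesicle fusion, was at 294 and 416 FPKM in mutants, against 260 and 330 FPKM in wild types. Ncdn (neurochondrin) was at 68.2 and 97.6 FPKM, against 54.4 and 63.0 FPKM, and Ndrg4 at 398 and 474 FPKM, against 308 and 405 FPKM. The first of these pairs belongs to the mutants each time, and of these genes Ncdn alone did not overlap.

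Among the 27 stathmins and microtubule-associated proteins beside Stmn2 and Map2, 7 were higher without overlap, where 12.5% of all genes were, and 0 were lower, where 19.6% were. None of the 27 passed the test. Their median log2 difference was 0.23. Stmn4 was at 7.07 and 10.0 FPKM in mutants, against 5.64 and 6.04 FPKM in wild types (log2 difference 0.47, limma adjusted p = 0.994). The abundant stathmins overlapped between genotypes, Stmn3 at 929 and 1243 FPKM in mutants against 878 and 1144 FPKM in wild types, and Stmn1 at 394 and 539 FPKM against 354 and 429 FPKM. Of 14 tubulin genes beside Tubb3, 1 was higher without overlap and 0 lower. This was Tuba1b, at 359 and 421 FPKM in mutants against 329 and 306 FPKM in wild types. Tuba1a, the most abundant of them, was at 1332 and 1872 FPKM against 1495 and 1474 FPKM, and Tubb4b at 455 and 598 FPKM against 441 and 499 FPKM, mutants first. The tubulin median was 0.21.

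Axonal transport motors had a median log2 difference of 0.16 over 21 genes, with 1 higher without overlap, 0 lower and 0 past the test. The exception to the overlap was Kif1a, the kinesin that carries synaptic vesicle precursors, at 40.4 and 66.4 FPKM in mutants against 32.3 and 36.1 FPKM in wild types. The kinesin light chain Klc1 was at 230 and 424 FPKM against 204 and 327 FPKM, and the dynein light chain Dynll1 at 304 and 296 FPKM against 300 and 255 FPKM, again mutants first, and both overlapped. Of 17 spectrin, ankyrin and node scaffold genes, 3 were higher and 1 lower without overlap, with a median of 0.27, and the higher count was near the share of all genes. Cntnap1, which forms the junctions beside the node of Ranvier, was at 8.34 and 9.22 FPKM in mutants against 6.17 and 6.52 FPKM in wild types, and had an unadjusted p of 0.0309 (limma adjusted p = 0.994). Sptan1 was at 66.8 and 101 FPKM against 66.2 and 82.8 FPKM, and Sptbn1 at 85.4 and 95.7 FPKM against 92.8 and 105 FPKM, both with overlap. Among 5 other intermediate filament and linker genes, which are also expressed outside neurons, Nes was higher in both mutants (14.9 and 30.8 FPKM against 14.2 and 14.6 FPKM in wild types), and Vim overlapped (754 and 970 FPKM against 694 and 840 FPKM).

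Large against small fibre neurons were compared by ratios within a library, which do not change when a library is rescaled. Nefl over Prph was 1.18 and 1.45 in mutants, against 0.997 and 1.03 in wild types. Nefh over Prph was 0.231 and 0.327 in mutants, against 0.192 and 0.205 in wild types. Both ratios were higher in both mutants, and the wild types lay close together while the mutants did not. Nefm over Prph was 0.303 and 0.438 in mutants, against 0.268 and 0.308 in wild types, and overlapped. Of the 9 genes set over Prph, 2 were therefore higher without overlap and 0 lower. Of all other genes tested, 1.99% had a higher and 2.39% a lower ratio to Prph without overlap. Prph itself varied 2.03-fold within mutants and 1.78-fold within wild types.

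**Figure D3:**
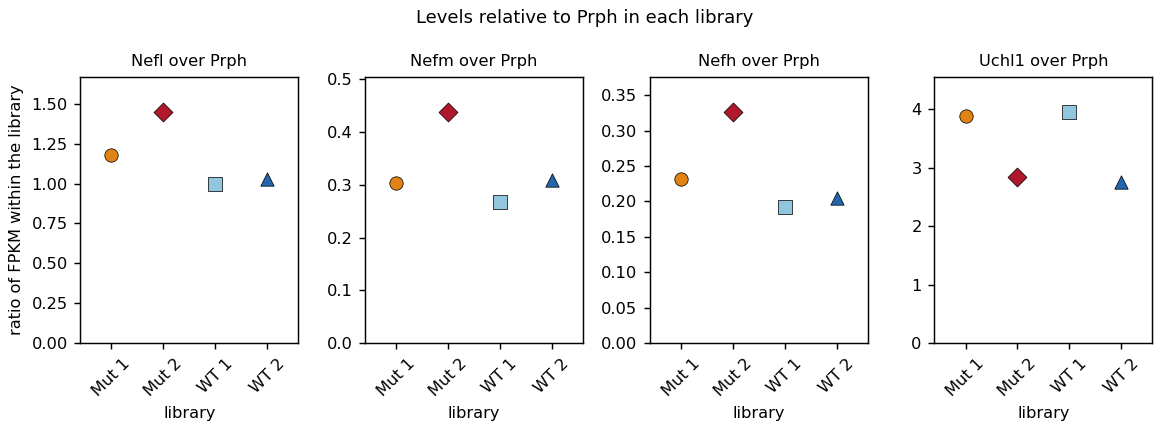
Ratio of the FPKM of Nefl, Nefm, Nefh and Uchl1 to that of Prph in each library, with 1 point per library and each axis starting at 0. Nefl and Nefh over Prph are higher in both mutants, while Uchl1 over Prph separates the libraries numbered 1 from those numbered 2 in both genotypes.

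On the log2 scale, the mean of Nefl, Nefm and Nefh minus Prph was -1.19 and -0.75 in mutants, against -1.42 and -1.31 in wild types, a difference of 0.39 that ranged from 0.17 to 0.61 with each library left out. For Nefh alone the difference was 0.47, with a range of 0.22 to 0.71. These scores use genes chosen with results known and carry no p-value, and an exact permutation test of 2 samples against 2 could not give a two-sided p below 0.333. The separation depended on Prph as the partner. Against Uchl1, Nefh was at 0.0594 and 0.115 in mutants and at 0.0485 and 0.0742 in wild types, with overlap. Against the mean of 22 other small fibre genes, the mean log2 level of Nefl, Nefm and Nefh was 2.94 and 3.95 higher in mutants and 2.63 and 3.16 higher in wild types, again with overlap. Among the subunits, Nefm over Nefl (0.256 and 0.302 in mutants, 0.269 and 0.299 in wild types) and Nefh over Nefl (0.196 and 0.225 in mutants, 0.192 and 0.199 in wild types) overlapped. Of the 9 genes set over Uchl1, 2 were higher without overlap, where 5.36% of all other genes were, and 1 was lower, where 13.8% were. Tubb3 over Uchl1 was 0.475 and 0.444 in mutants, against 0.422 and 0.391 in wild types, and Thy1 over Uchl1 was 0.124 and 0.118, against 0.116 and 0.108. Stmn2 over Uchl1 was the lower one, at 0.360 and 0.322 in mutants, against 0.365 and 0.405 in wild types.

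Large and small fibre genes outside the 10 were set against each other in the same way. The mean log2 level of 20 large fibre genes minus that of 22 small fibre genes was -0.84 and -0.91 in mutants, against -0.98 and -1.07 in wild types, without overlap and with a difference of 0.15. Leaving out Pvalb, which is also a muscle gene, gave -1.06 and -1.18 in mutants, against -1.20 and -1.31 in wild types. Among large fibre genes 4 were higher and 2 lower without overlap (median log2 difference 0.16), and among small fibre genes 4 were higher and 3 lower (median 0.024). Beside the 12.5% higher and 19.6% lower of all genes, neither list's counts are read as a result. None of either list passed the test. Slc17a7, a vesicular glutamate transporter of large neurons, was at 20.7 and 28.8 FPKM in mutants against 17.5 and 18.5 FPKM in wild types, Pvalb at 220 and 624 FPKM against 226 and 401 FPKM, and Ldhb at 330 and 403 FPKM against 328 and 340 FPKM. At an unadjusted p of 0.05, 3 of the 22 small fibre genes were higher, where 1.35% of all genes were, and 2 were lower, where 3.01% were. Cd55, of nonpeptidergic neurons, was lower at 72.5 and 77.9 FPKM in mutants against 98.3 and 127 FPKM in wild types, and the itch peptide gene Nppb was at 40.0 and 44.0 FPKM against 53.3 and 68.4 FPKM. Calcb, a CGRP gene, was higher at 260 and 255 FPKM in mutants against 157 and 198 FPKM in wild types, as were Agtr1a (13.5 and 12.2 FPKM against 8.50 and 8.93 FPKM) and Ptprt (3.34 and 4.91 FPKM against 2.32 and 2.58 FPKM). The limma adjusted p of these 5 genes was 0.844 for Agtr1a and 0.994 for each of the others. Calca (1665 and 1764 FPKM in mutants, 1547 and 1861 FPKM in wild types) overlapped, while Tac1 was slightly higher in both mutants (448 and 380 FPKM against 369 and 375 FPKM).

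**Figure D4:**
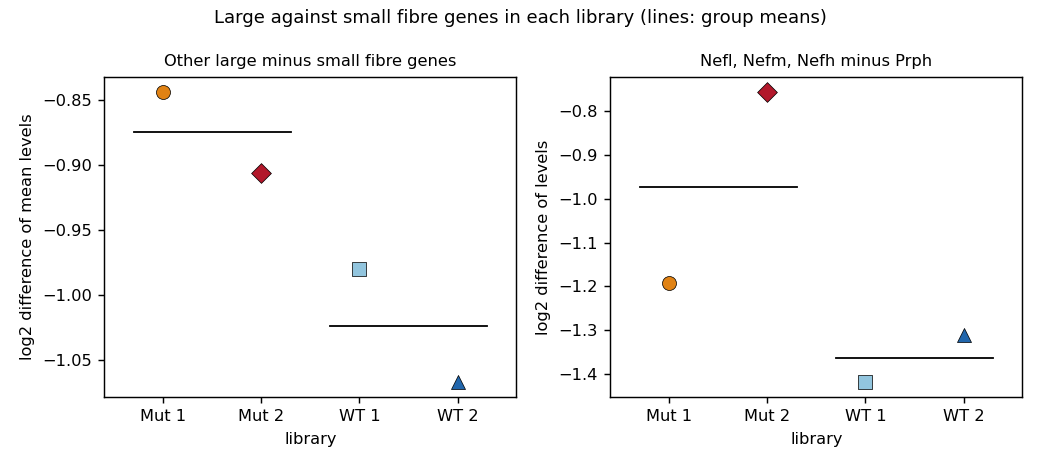
Left, the mean log2(FPKM + 1) of 20 large fibre genes minus that of 22 small fibre genes, none of them among the 10; right, the mean of Nefl, Nefm and Nefh minus Prph. Points are libraries and lines are group means. Both mutants lie above both wild types in each panel, but mutant 1 is the higher mutant on the left and the lower on the right.

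Markers of other cell types also differed between these libraries, and their part in the values above was not tested. Skeletal muscle genes (19 of 21 listed were tested) summed to 400 and 6494 FPKM in mutant 1 and 2, against 633 and 3379 FPKM in wild type 1 and 2. This is the same order of the numbered libraries within each genotype as for the neurofilaments. The muscle actin Acta1 was at 32.4 and 1027 FPKM in mutants, against 76.7 and 585 FPKM in wild types. These sums include Pvalb, which is also on the large fibre list, at 220 and 624 FPKM in mutants against 226 and 401 FPKM in wild types. In mutant 1 Pvalb was thus most of the muscle sum. Adipocyte genes (14 of 15 listed were tested) summed to 357 and 3034 FPKM in mutants, against 611 and 1044 FPKM in wild types. Schwann cell and myelin genes (all 18 tested) summed to 10784 and 22315 FPKM in mutants, against 10885 and 8766 FPKM in wild types, so mutant 2 was again the highest but wild type 2 the lowest. Satellite glia genes (15) ran from 8783 to 9367 FPKM in mutants and from 8895 to 9920 FPKM in wild types. Fibroblast and meninges genes (20) had a lower sum in both mutants (11907 and 8080 FPKM, against 22363 and 21170 FPKM). In wild types most of that sum was Ptgds, at 3201 and 3025 FPKM in mutants against 13098.5 and 13054.9 FPKM in wild types. Dcn, the next most abundant, overlapped (3710 and 1901 FPKM against 3462 and 3347 FPKM). Of the 20, 11 were lower without overlap, where 19.6% of all genes were, and 0 higher, where 12.5% were. Erythrocyte genes (8) were higher in both mutants (6438 and 6583 FPKM, against 3441 and 3239 FPKM). Of 10 spinal cord genes, only 3 were in the matrix and tested, and these summed to 14.3 and 12.9 FPKM in mutants, against 15.7 and 17.8 FPKM in wild types. Most of each sum was Hoxb8, at 9.43 and 7.67 FPKM in mutants against 12.3 and 10.7 FPKM in wild types. The sum is therefore a weak measure of spinal cord. None of the tested markers on these lists was at 0 in any library.

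**Figure D5:**
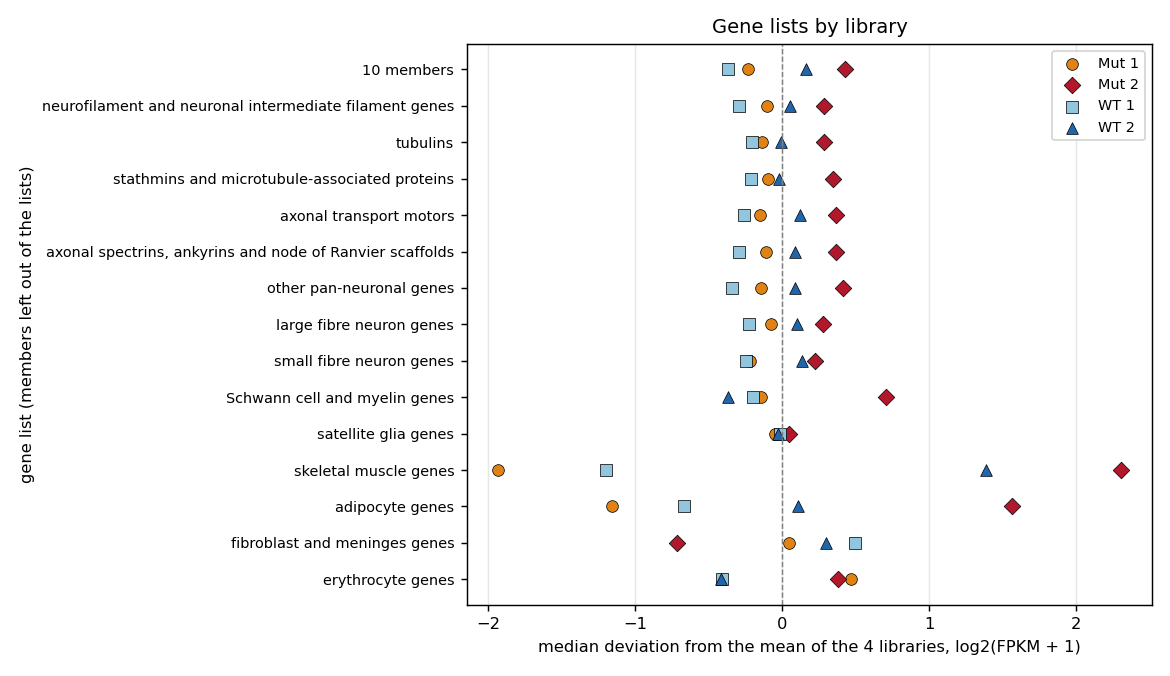
Median deviation of each gene list from the mean of the 4 libraries on log2(FPKM + 1), with 1 point per library. The 10 genes and the neuronal lists run, from high to low, in the order mutant 2, wild type 2, mutant 1, wild type 1, and the muscle list spans from -1.93 in mutant 1 to 2.31 in mutant 2.

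The genes most like the neurofilaments across the 4 libraries were found among 4193 other genes of at least 20 FPKM, by the root mean square difference of centred log2(FPKM + 1). Nearest to the mean of Nefl, Nefm and Nefh were Chga (0.108), Th (0.123), Pvalb (0.132), H1fx (0.146) and Cox7a1 (0.151), while Prph was at 0.253. Chga, which encodes chromogranin A of secretory granules, was at 18.8 and 44.7 FPKM in mutants, against 14.9 and 30.4 FPKM in wild types. Th, which encodes tyrosine hydroxylase and marks touch-sensing C fibres in mouse ganglia, was at 22.5 and 57.5 FPKM, against 20.8 and 33.5 FPKM. Pvalb, which is also on the skeletal muscle list, was at 220 and 624 FPKM, against 226 and 401 FPKM. Cox7a1 was at 49.6 and 125 FPKM, against 48.3 and 88.4 FPKM, mutants first each time. Nearest to Prph were Pfdn2 (0.067), Scn10a (0.072), Arl6ip4 (0.083), Tmem38a (0.092) and Bex2 (0.092). Scn10a, the sodium channel gene of nociceptors, was at 16.3 and 31.3 FPKM in mutants, against 13.4 and 26.1 FPKM in wild types. Likeness over 4 libraries is a description, since many genes share the order of these libraries. Of 19 skeletal muscle genes, 18 were also higher in the library numbered 2 in both genotypes, so a near pattern does not mark a gene as neuronal.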

How the data were processed

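RNA was sequenced in bulk from 4 dorsal root ganglion samples, 2 mutant and 2 wild type, grouped and numbered by their titles. The authors deposited FPKM per gene and sample. They also deposited a list of 150 genes with group FPKM, log2 fold changes, p-values and q-values. The tools named in the submitters' processing notes are CASAVA, TopHat2 (2.1.2) and Cufflinks (2.2.1), and the build is mm10. The sources used here do not give their settings or the library scaling. FPKM hold no read counts, so depth and counting error are unknown.

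limma 3.58.1 in R 4.3.3 was fitted to log2(FPKM + 1) with a variance trend over the 14040 genes whose mean reached 1 FPKM in mutants or wild types. Tests were two-sided, and p-values were adjusted over all genes (Benjamini and Hochberg, threshold 0.05). Fold changes on this scale understate those of low genes. Each fit had 2 residual degrees of freedom and 3.44 more from the prior, and since no label says that samples came from separate animals, the spread behind each p may be technical. The script was run on simulated data with independent noise for each gene. Those data lack the order of libraries that many genes share here. The 10 genes and the gene lists were chosen with earlier results of these data known. Beside the 10, the text names the 2 most abundant genes of each neuronal list and the one with the smallest p. Of the muscle list and of the fibroblast and meninges list it names the 2 most abundant, and of the spinal cord list the most abundant. The 5 genes nearest in pattern were named too. The other small fibre genes under an unadjusted p of 0.05 (Calcb, Cd55, Nppb and Ptprt) and the shared order of libraries were singled out after the values were seen.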

Additional observations from a re-analysis of the deposited data

How the results depend on the processing

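With 2 samples a group and FPKM without counts, only differences well beyond the spread of the libraries could be detected. Under the alternatives, 119 values of the 10 genes were computed, 0 passed the adjusted threshold (smallest limma adjusted p 0.306) and 17 changed sign. Leaving out 1 library, with the lone sample assumed to vary like the others, gave log2 differences from -0.13 to 1.38 for Nefh, -0.13 to 1.18 for Nefl, -0.28 to 1.27 for Nefm, -0.35 to 0.67 for Prph, -0.17 to 0.56 for Ina, -0.24 to 0.22 for Stmn2, -0.12 to 0.45 for Uchl1 and -0.11 to 0.11 for Map2. Tubb3 (0.11 to 0.58) and Thy1 (0.023 to 0.52) kept their sign. Scaling to other pan-neuronal genes turned Map2 (-0.19), Prph (-0.077) and Uchl1 (-0.066), and median ratio scaling turned Stmn2 (0.0057). The minimum of 5 FPKM removed Ina.

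Across all genes, 612 had an unadjusted p under 0.05, against 400 with a minimum of 5 FPKM, 406 scaled to pan-neuronal genes and from 440 (without wild type 1) to 1807 (without mutant 1) with a library left out. None passed the adjusted threshold, against 14 scaled to pan-neuronal genes and from 0 to 5 (without wild type 1) with a library left out. With the replicate number as a block (replicate block) these counts were 1474 and 61. Deviations of same-numbered libraries correlated at 0.481 across genes, but 2 pairs cannot establish a pairing. The causes of these changes were not tested.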
